A study of Homo sapiens with 6 samples.

Results

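In long-read sequencing of Calu-6 cells, 7 protein-coding genes (CLHC1, TRABD2A, CAND2, ATG10, DTL, IL6ST and WDR38) were among the most highly counted genes, yet almost none of their counts lay on their annotated transcripts. They are 7 of the 10072 genes in the deposited table, and they were chosen by measured values: their large counts, which came close to those of an abundant gene annotated on the other strand of the same locus. The size of their counts, the structure of their transcript models and their closeness to the opposite gene are therefore a description of how they were picked and carry no test. Calu-6 is an established non-small cell lung cancer line, labelled WT in every sample, and cells received 10 nM siRNA for 48 h. The 3 siControl libraries came from cells given a non-silencing siRNA, and the 3 siDelta2-4 libraries from cells given an siRNA directed at the joined ends of exon 1 and exon 5 in TERT Delta 2-4, a telomerase reverse transcriptase mRNA that skips the exons between. All 6 were barcoded PCR-cDNA libraries sequenced together on 1 nanopore flow cell. The comparison asked what knockdown of Delta 2-4 changed across the transcriptome. The column names of the table begin with Empty, and the study sequenced Calu-6 cells that stably carry an empty vector or a Delta 2-4 construct, so the cells may be the empty-vector line rather than unmodified Calu-6. The design holds 1 cell line and 1 siRNA per group. The study calls the libraries biological replicates, the labels do not name separate cultures, and the p-values measure the spread between these libraries.

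The 7 genes have little in common by function. CLHC1 encodes a protein with a clathrin heavy chain linker domain. TRABD2A (also called TIKI1) is a membrane metalloprotease that inactivates Wnt ligands. CAND2 exchanges the substrate receptors of cullin ubiquitin ligases, and DTL (also called CDT2) is such a receptor, which brings CDT1 and other substrates to the CUL4-DDB1 ligase during DNA replication. ATG10 is the E2-like enzyme that joins ATG12 to ATG5 when autophagosomes form. IL6ST is gp130, the shared signalling receptor of the interleukin-6 family, and WDR38 is a WD repeat protein. The genes on the other strand were of a different kind. RPS27A, RPL32, RPS23 and RPL35 encode ribosomal proteins, TMSB10 encodes the actin-binding peptide thymosin beta 10, and the remaining pair are processed pseudogenes, intronless copies of spliced mRNAs that were reinserted in the genome.

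The loci took 3 arrangements in Gencode 44 on GRCh38. CAND2 (ENSG00000144712.13, chr3:12796472-12834804, plus strand), ATG10 (ENSG00000152348.16, chr5:81972023-82276857, plus strand) and WDR38 (ENSG00000136918.8, chr9:124853417-124857890, plus strand) end where the opposite gene ends, tail to tail. The shared stretch was 320 bases between CAND2 and RPL32, 3538 bases between ATG10 and RPS23, and 11 bases between WDR38 and RPL35. These are overlaps of gene spans, which take in all annotated transcripts. The reference transcript ATG10-201 ends 19.725 kb from the centre of RPS23, whose span ends 2.538 kb from it. Only other ATG10 transcripts reach RPS23. CLHC1 (ENSG00000162994.16, chr2:55172547-55232563, minus strand) starts beside RPS27A, head to head, with 661 bases shared. TMSB10, 1016 bases long, lies whole inside the first part of TRABD2A (ENSG00000186854.11, chr2:84821650-84907008, minus strand). DTL (ENSG00000143476.18, chr1:212035553-212107400, plus strand) and IL6ST (ENSG00000134352.21, chr5:55935095-55995022, minus strand) each hold an opposite-strand pseudogene inside an intron. These are RPL21P28, 483 bases long, in DTL and ENSG00000264281, 78 bases long, in IL6ST. Few bases of the opposite transcripts were exonic in the member: none of the 785 bases of RPS27A-201, 9 of the 461 bases of TMSB10-201, 320 of the 2094 bases of RPL32-204, 232 of the 3252 bases of RPS23-201 and 8 of the 452 bases of RPL35-201.

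**Figure D1:**
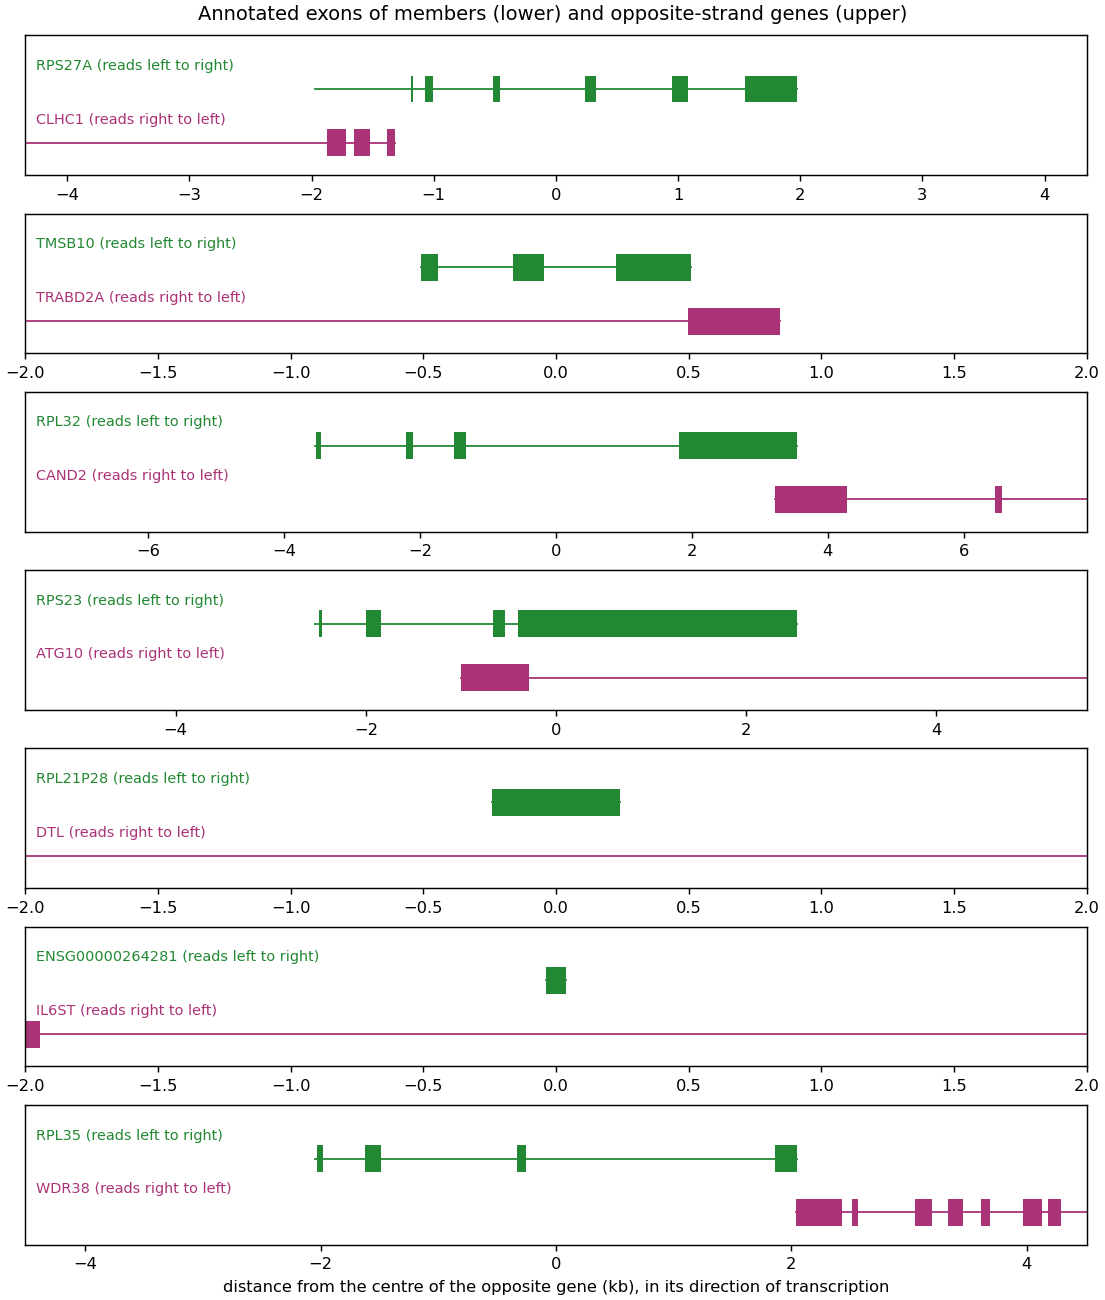
Annotated exons at the 7 loci, drawn to scale as distance in kb from the centre of the opposite gene, along its direction of transcription. Boxes are exons (the main transcript of the opposite gene above, all annotated exons of the member below) and lines are gene spans. WDR38 and RPL35 share 11 bases, while TMSB10 and both pseudogenes lie wholly inside the span of their member.

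The splice sites show on which strand each spliced locus is annotated to be transcribed. Introns of human genes nearly all begin with GT and end with AG on the transcribed strand: of 320733 annotated introns of protein-coding genes, 98.1% did so, 1.62% ran from GC to AG, and 0 ran from CT to AC, which is what GT and AG become when read from the other strand. The 5 spliced opposite transcripts hold 16 introns, of which 15 run from GT to AG on their own strand and 1, in RPS27A-201, from GC to AG. None of the 16 is an annotated intron of the member, and 12 lie outside the member's span altogether. For each locus the intron nearest to the member, or the last one inside it, is shown on the strand of the opposite gene, 5′ to 3′, with 20 bases around each end and the intron's outermost bases in capitals.
RPS27A donor, chr2:55232699-55232718, plus strand: gccatctgcgGTgggtgtct
RPS27A acceptor, chr2:55232798-55232817, plus strand: tcaacctcAGgtggagccgc
TMSB10 donor, chr2:84906108-84906127, plus strand: accaaagagaGTgagtgtgc
TMSB10 acceptor, chr2:84906379-84906398, plus strand: ctctccacAGccattgagca
RPL32 donor, chr3:12839339-12839358, minus strand: tgtgcaacaaGTgagttggg
RPL32 acceptor, chr3:12836214-12836233, minus strand: tctcttgcAGatcttactgt
RPS23 donor, chr5:82276388-82276407, minus strand: ctttattgagGTgagtattt
RPS23 acceptor, chr5:82276246-82276265, minus strand: tttattccAGgaaaatgatg
RPL35 donor, chr9:124860173-124860192, minus strand: attctacaagGTgagtctgc
RPL35 acceptor, chr9:124858058-124858077, minus strand: tgtctcccAGggcaagaagt
On the strand of the member, the same windows run in the other order and carry CT and AC in place of AG and GT. They are given for WDR38, whose span stops 178 bases short of this intron, and for ATG10, whose span contains it.
WDR38 strand, first intron end, chr9:124858058-124858077, plus strand: acttcttgccCTgggagaca
WDR38 strand, second intron end, chr9:124860173-124860192, plus strand: gcagactcACcttgtagaat
ATG10 strand, first intron end, chr5:82276246-82276265, plus strand: catcattttcCTggaataaa
ATG10 strand, second intron end, chr5:82276388-82276407, plus strand: aaatactcACctcaataaag

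The pseudogene loci have no intron to read, and there the sequence of the copy is what matters. By alignment to the Gencode transcripts, the RPL21P28 locus carries 565 bases (chr1:212051480-212052044, minus strand) that match RPL21-202 at 99.1%. RPL21 is a ribosomal protein gene on chromosome 13. The copy in IL6ST covers 400 bases (chr5:55944642-55945041, plus strand) and matches RPL41-204, from the gene of a very short ribosomal protein on chromosome 12, at 99.3%. The annotated 78 bases of ENSG00000264281 (chr5:55944656-55944733, plus strand) differ from RPL41-204 at 0 positions and are printed with their first and last codons in capitals because they are the whole feature that took the counts.
ENSG00000264281: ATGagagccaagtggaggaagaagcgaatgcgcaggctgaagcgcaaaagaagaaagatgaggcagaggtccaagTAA
Both copies end in a run of A, a mark of reinserted mRNA. The 30 bases after the RPL21 copy hold 30 A, and those after the RPL41 copy, printed with the first run of A in capitals, begin with 18 A.
After the RPL41 copy, chr5:55945042-55945071, plus strand: AAAAAAAAAAAAAAAAAAgactgcagttct

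CLHC1 received 30065 counts over the 6 libraries, TRABD2A 28229, CAND2 27060, IL6ST 25319, ATG10 24214, DTL 20600 and WDR38 17505. The total of 172992 counts was 2.55% of all 6784575, and among protein-coding genes the 7 ranked between 21 (CLHC1) and 57 (WDR38). The opposite genes together received 190687 counts, 2.81% of the table. Of the members' counts, 5 lay on annotated models: 3 on ATG10, 1 on TRABD2A and 1 on DTL. All others were on 46 unannotated models, out of 49 in all. The table lists 0 models without a count in siDelta2-4, so an annotated model seen in siControl alone would not be in it. Among the 453 protein-coding genes with at least 1000 counts, the median share of counts on annotated models was 90.9%. For 6 of the 7 opposite genes that share was 95.4% to 100%, and for RPS27A it was 0.00785%, or 3 counts of 38225.

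The members were not the only genes of this kind. Of those 453 protein-coding genes, 89 had under 1% of their counts on annotated models, and 42 of the 89 overlapped an opposite-strand gene with a count at least 0.5 times their own, the members and RPS27A included. A further 36 of the 89 overlapped no counted gene on the other strand, although 21 of these had one of such size within 5000 bases. WDR38, with 17505 counts beside 19018 of RPL35, was the least counted member. NKIRAS1, with 11150 counts beside 8768 of RPL15, was a gene of this kind with fewer counts and was not a member.

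In each member, 1 model held most of the counts, and it had as many exons as the most counted model of the opposite gene. For CLHC1, whose reference transcript CLHC1-201 has 13 exons and 5330 bases, 60.4% of the counts were on a model of 6 exons and 879 bases, and the leading RPS27A model had 6 exons and 801 bases. For TRABD2A (TRABD2A-203, 7 exons, 1814 bases), 96.3% were on a model of 3 exons and 817 bases, beside the 3 exons and 461 bases of TMSB10-201. CAND2 (CAND2-203, 15 exons, 4573 bases) had 94.1% on a model of 4 exons and 1597 bases, and RPL32-204 has 4 exons and 2094 bases. ATG10 (ATG10-201, 8 exons, 3029 bases) had 64.0% on a model of 4 exons and 1151 bases, and RPS23-201 has 4 exons and 3252 bases. WDR38 (WDR38-201, 9 exons, 1265 bases) had 94.3% on a model of 4 exons and 436 bases, close to the 4 exons and 452 bases of RPL35-201. At the pseudogene loci, 99.4% of DTL counts were on a model of 1 exon and 572 bases, where DTL-201 has 15 exons and 4409 bases, and 99.3% of IL6ST counts were on a model of 1 exon and 465 bases, where IL6ST-204 has 17 exons and 9027 bases. The exon numbers thus matched at 7 of 7 loci, while the lengths did not in general. The lengths are unlike measures, however. Each member length is that of an unannotated model, and each opposite length except that of RPS27A is that of an annotated transcript. Whether unannotated models of both genes had like lengths was not tested. The deposited table put 83.3% (CLHC1) to 99.8% (WDR38) of each member's counts in TALON's class of incomplete splice matches, a class for models that are cut-short versions of annotated transcripts. It gives exon number and length but no junction positions or strand, so whether the members' models use the junctions printed above could not be read from it.

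Models with 1 exon fewer than the leading one held a smaller share in both genes. ATG10 had 29.5% of its counts on models of 3 exons and RPS23 had 24.2%. For CAND2 the share on 3 exons was 4.29% and for RPL32 it was 3.22%, and for WDR38 and RPL35 these shares were 5.46% and 6.96%. On 2 exons TRABD2A had 1.03% and TMSB10 1.59%. The ranges over the 6 libraries did not overlap between the genes at these loci: 3.99% to 4.63% for CAND2 and 2.99% to 3.40% for RPL32, for instance. CLHC1 was the locus where the partners differed most, with 22.8% of CLHC1 counts and 10.5% of RPS27A counts on models of 5 exons. That CLHC1 share was 21.3%, 20.4% and 20.7% in siControl libraries 1 to 3 (numbered as in the deposited columns, which gives them no order) and 22.2%, 26.0% and 25.6% in siDelta2-4 libraries 1 to 3. The RPS27A share was 10.0%, 10.3% and 9.64% in siControl and 10.6%, 11.1% and 11.4% in siDelta2-4. The groups did not overlap in either gene, a pattern singled out after the values were seen. For the shares on 3 exons in ATG10 and RPS23, the groups overlapped in both genes. No rate over all genes was computed for such shares. The CLHC1 model of 5 exons with the most counts, TALONT000582014, differed by 0.20 ± 0.08 (log2, SE) with an adjusted p of 0.153 and did not pass the test over all models.

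**Figure D2:**
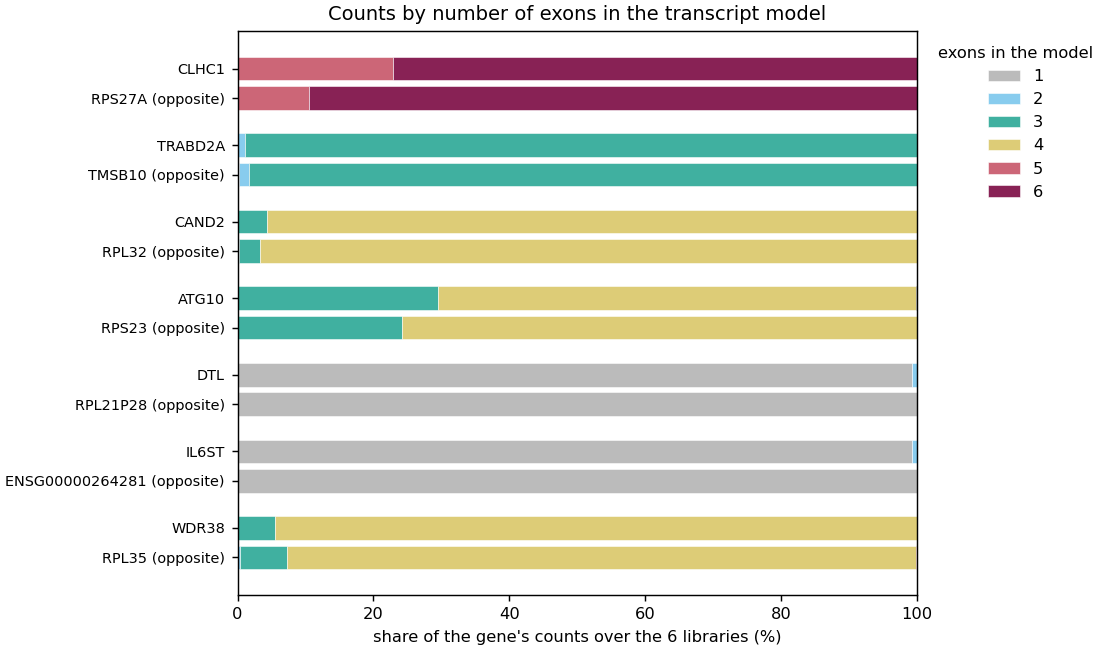
Share of each gene's counts over the 6 libraries (x axis, %) by the number of exons in the transcript model, for each member and, beneath it, its opposite gene. Within a locus the same exon number leads in both genes; CLHC1 holds 22.8% and RPS27A 10.5% on 5 exons.

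At each locus the counts were split near evenly between the strands. The member's share of the counts of member plus opposite gene ran from 42.6% to 45.2% over libraries at CLHC1. Over the 6 libraries together it was 46.2% at DTL, 47.3% at ATG10, 47.9% at WDR38, 49.1% at CAND2, 49.5% at TRABD2A and 49.6% at IL6ST. Over single libraries and all loci it stayed between 42.6% and 50.9%. Parent genes of the pseudogenes took far fewer counts than the copies. RPL21 had 448 counts and RPL21P28 24030, and RPL41 had 3326 and ENSG00000264281 25697. Since copy and parent are nearly identical, the division of reads between them is uncertain. The sources used here name no step that oriented the cDNA reads by strand, and the study's supplementary methods were not used here. How far reads of one strand were counted on the other was not tested.

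Depth was 1037468 to 1106413 counts per siControl library and 1070009 to 1309241 per siDelta2-4 library. On the first principal component, which held 42.9% of the variance, siControl library 3 (-0.36) lay away from siControl libraries 1 and 2 (-16.9 and -15.2) and towards siDelta2-4 (8.71 to 13.8). TERT itself had 0 rows, so the knockdown could not be checked in this table. Of the epithelial markers fixed for the check, 5 of 6 were counted, and CDH1 had no row. Their sums, not scaled for depth, were 287 to 308 in siControl and 332 to 411 in siDelta2-4 libraries. Most of these counts were of KRT18 (1124 over all libraries) and KRT8 (824). KRT7 had 41, EPCAM 13 and KRT19 1. Sums of the immune markers were 2 to 4 per library with no row for PTPRC, those of the fibroblast markers were 1 to 5, and the endothelial markers had no row.

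Between siDelta2-4 and siControl, CAND2, IL6ST and WDR38 were lower in siDelta2-4, and the other 4 members did not pass the test. Levels are CPM, the counts of a gene scaled to library size with TMM factors, and the quasi-likelihood test of edgeR was run on 3888 genes, with calls made where the adjusted p was under 0.1. By that rule 13.0% of the genes tested were called, and 3 of 7 members. In bulk RNA, fewer cells of a type and less RNA per cell cannot be told apart.

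CAND2 was at 4748, 4623 and 4134 CPM in siControl libraries 1 to 3 and at 3730, 3336 and 3809 CPM in siDelta2-4 libraries 1 to 3. Every siDelta2-4 value lay below every siControl value. The means were 4502 ± 325 and 3625 ± 253 CPM (SD, n = 3), or -0.31 ± 0.08 as log2 fold change with SE (adjusted p = 0.0140). RPL32 on the other strand went from 4568 ± 355 to 3830 ± 231 CPM, -0.25 ± 0.08 (adjusted p = 0.0444), also without overlap, but its call was lost in 4 of the 6 fits that left out 1 library and with a replicate block (adjusted p = 0.136).

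WDR38 was at 3125, 2838 and 2774 CPM in siControl and at 2438, 2260 and 2347 CPM in siDelta2-4, again with no overlap. It fell from 2912 ± 187 to 2349 ± 88.9 CPM (SD, n = 3), or -0.31 ± 0.08 as log2 fold change (adjusted p = 0.0117). RPL35, a protein of the large ribosomal subunit, went from 3079 ± 321 to 2624 ± 108 CPM, -0.23 ± 0.08 (adjusted p = 0.0761), and its call was lost in 5 of those 6 fits and with the block (adjusted p = 0.167).

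IL6ST was at 4444, 4138 and 3771 CPM in siControl and at 3496, 3288 and 3629 CPM in siDelta2-4, and here too the groups were apart. The fold change was -0.25 ± 0.08 (adjusted p = 0.0513). The pseudogene ENSG00000264281 did not pass, with 4012 ± 355 CPM in siControl, 3673 ± 96.3 CPM in siDelta2-4 and overlapping groups (-0.13 ± 0.08, adjusted p = 0.338). The IL6ST call was lost in 4 of the 6 fits that left out 1 library, as named in the closing section. The CAND2 call was lost without siControl library 2 (adjusted p = 0.106) and without siDelta2-4 library 2 (adjusted p = 0.114), and the WDR38 call was kept in all 6 such fits.

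The other 4 members had overlapping groups. CLHC1 was at 4848, 4699 and 4294 CPM in siControl and 4478, 4141 and 4474 CPM in siDelta2-4 (-0.08 ± 0.08, adjusted p = 0.570). TRABD2A was at 4561, 4316 and 3849 CPM in siControl and 4201, 3997 and 4318 CPM in siDelta2-4 (-0.02 ± 0.08, adjusted p = 0.891). ATG10 was at 3737, 3744 and 3486 CPM and then 3603, 3400 and 3687 CPM (-0.04 ± 0.07, adjusted p = 0.816). DTL was at 3061, 3483 and 2935 CPM and then 2916, 2915 and 3117 CPM (-0.08 ± 0.08, adjusted p = 0.571). In all 4, as in CAND2, IL6ST and WDR38, siControl library 3 held the lowest siControl value. The opposite genes of these 4 did not pass either. Their log2 fold changes were -0.06 for RPS27A, 0.05 for TMSB10, -0.01 for RPS23 and -0.04 for RPL21P28. Without siControl library 3, CLHC1 (-0.15, adjusted p = 0.0903) and DTL (-0.16, adjusted p = 0.0953) were called as well, making 5 of 7 members beside 25.4% of the 4098 genes then tested. In that fit RPS27A (-0.16, adjusted p = 0.0764) and the IL6ST pseudogene ENSG00000264281 (-0.22, adjusted p = 0.0131) were called too.

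**Figure D3:**
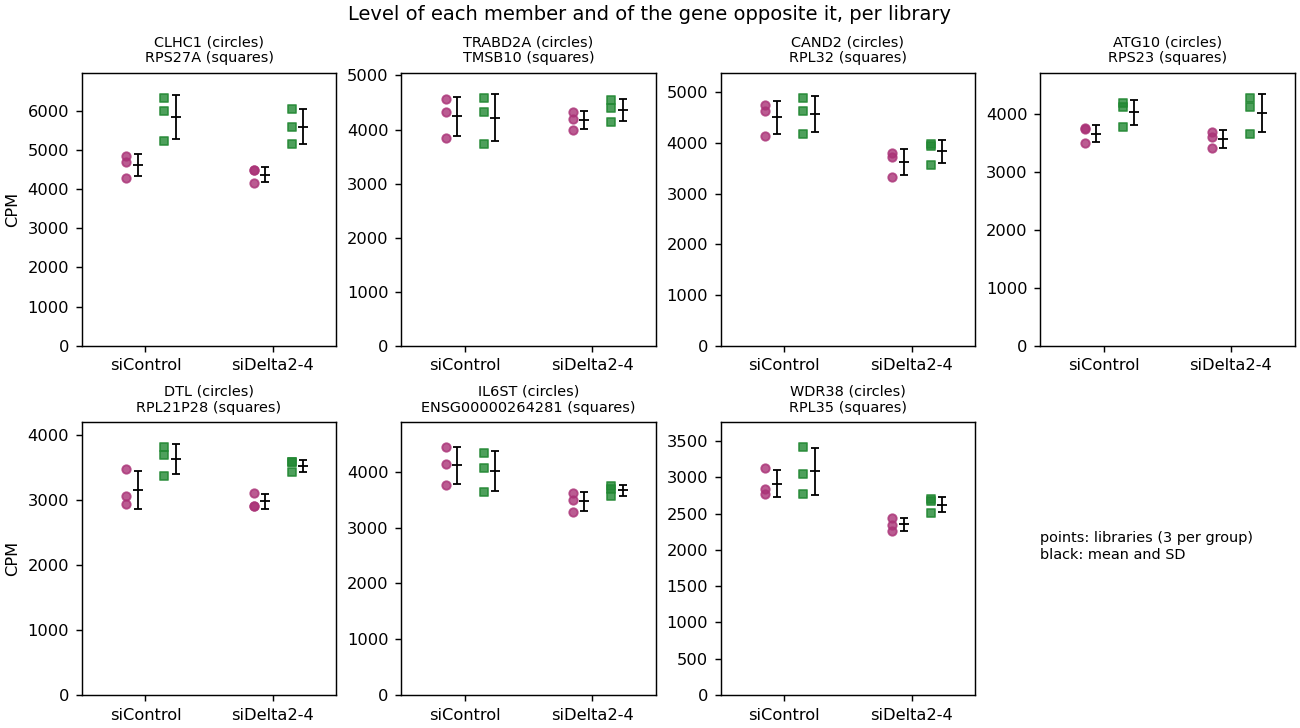
CPM of each member (circles) and of its opposite gene (squares) in the 3 siControl and 3 siDelta2-4 libraries, with mean and SD in black and each y axis starting at 0. The siDelta2-4 circles lie below all siControl circles for CAND2, IL6ST and WDR38 only; the squares do so for RPL32 and RPL35.

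CPM of the groups did not overlap in 26.0% of all genes tested, in 3 of 7 members and in 2 of 7 opposite genes. The median log2 fold change was -0.08 over the members, -0.06 over the opposite genes and 0.03 over all genes. Member and opposite gene were measured in the same libraries, so their changes are not independent. Transcript length moved with the result in part. Other genes whose leading model was within 10% of WDR38's 436 bases had a median log2 fold change of -0.13 (137 genes, 13.1% called lower), and for the 465 bases of IL6ST it was also -0.13 (169 genes, 12.4% called lower). Around the 1597 bases of CAND2 it was 0.12 (456 genes, 2.41% called lower). The part of length in these calls was not tested.

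**Figure D4:**
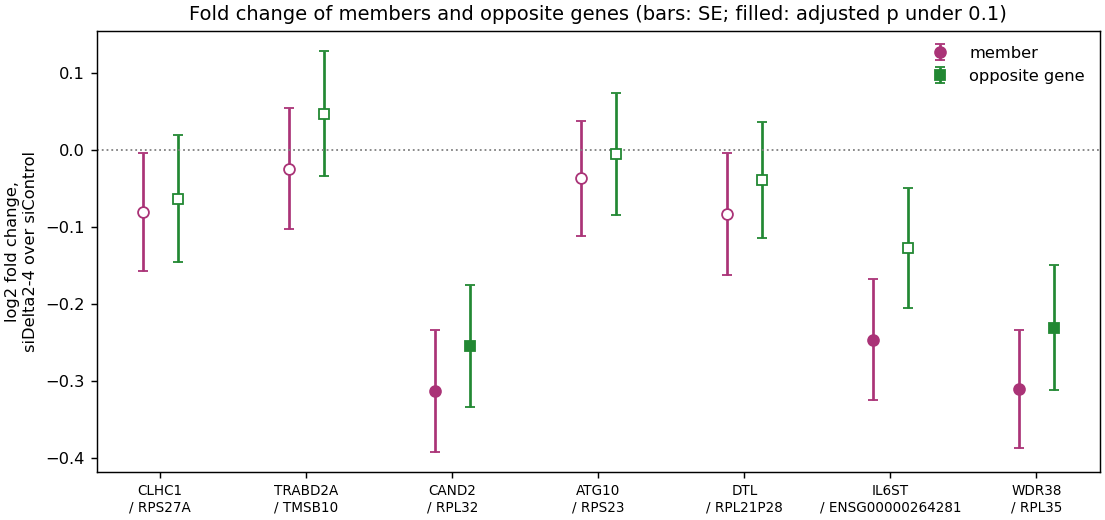
Log2 fold change of siDelta2-4 over siControl for each member (circles) and its opposite gene (squares), with SE bars from edgeR; filled symbols passed at adjusted p under 0.1. CAND2 (-0.31), IL6ST (-0.25) and WDR38 (-0.31) are filled, as are RPL32 (-0.25) and RPL35 (-0.23).

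The test was repeated on single transcript models. Of 6768 models tested, 6.91% were called, and 4 of the 39 member models tested, all lower in siDelta2-4. These were the leading models of CAND2 (TALONT000693832, -0.29 ± 0.06, adjusted p = 0.00971), IL6ST (TALONT000736848, -0.22 ± 0.06, adjusted p = 0.0464) and WDR38 (TALONT000491036, -0.27 ± 0.06, adjusted p = 0.0121), and a second WDR38 model (TALONT000491057, -0.46 ± 0.14, adjusted p = 0.0586). Of 36 opposite-gene models tested, 2 were called: RPL32-204 and RPL35-201, both lower.

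The share of the locus counted on the member was then compared, since it does not depend on scaling between libraries. The difference, siDelta2-4 minus siControl, was -2.09 percentage points at IL6ST, -1.43 at WDR38, -1.26 at TRABD2A, -1.03 at CAND2, -0.739 at DTL, -0.514 at ATG10 and -0.304 at CLHC1. At IL6ST the share was 50.6%, 50.5% and 50.9% in siControl libraries 1 to 3 and 48.2%, 48.0% and 49.5% in siDelta2-4. At WDR38 it was 47.8%, 48.2% and 50.0% in siControl and 47.4%, 47.5% and 46.8% in siDelta2-4. At TRABD2A it was 49.9%, 49.9% and 50.7%, then 48.0%, 49.2% and 49.6%. The groups did not overlap at these 3 loci and at CAND2, and overlapped at CLHC1, ATG10 and DTL. The exact two-sided permutation test gave p = 0.1 at each of the 4, the smallest that 3 libraries against 3 allow, and 0.175 after Benjamini-Hochberg adjustment over the 7 loci. With this design no locus could have passed at 0.1, so the test does not bear on whether the shares differed. All 7 differences rest on the same 6 libraries. Among the other 34 genes of this kind the difference was below 0 in 25 and above in 9. Their median was -0.759 points, beside -1.03 for the members. In how many of those 34 the groups did not overlap was not computed. The separation at 4 member loci therefore has no such share beside it. Reads on TALON's own antisense genes were 21.7% to 22.4% of counts in siControl libraries and 21.5% to 22.3% in siDelta2-4 libraries.

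**Figure D5:**
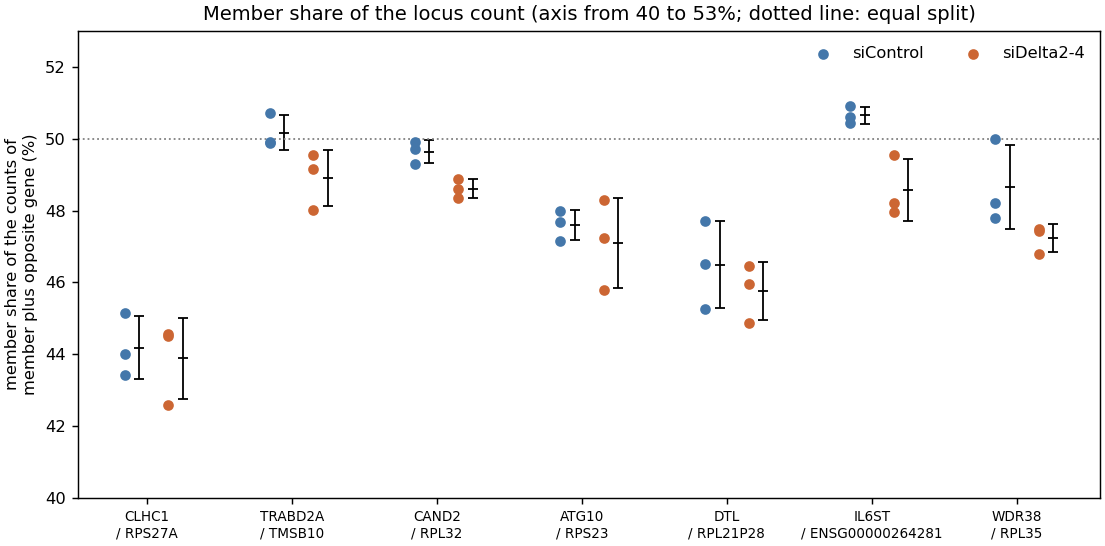
Member share of the counts of member plus opposite gene (y axis, %, drawn from 40 to 53 with a dotted line at an equal split) in each library, with mean and SD in black. The values lie between 42.6% and 50.9%, and the groups are apart at TRABD2A, CAND2, IL6ST and WDR38.

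Across the 6 libraries, log2 CPM of member and opposite gene varied together. Pearson's r was 0.99 for CAND2 with RPL32, 0.94 for WDR38 with RPL35, 0.92 for CLHC1 with RPS27A and for IL6ST with its pseudogene, 0.88 for TRABD2A with TMSB10, 0.86 for ATG10 with RPS23 and 0.82 for DTL with RPL21P28. These are descriptions over 6 points that share depth, scaling and treatment group. Many other genes correlated as well: the opposite gene ranked between 4 (RPL32) and 140 (the IL6ST pseudogene) of 3887 genes. The genes nearest in pattern were H2AZ1, H2AZ1-DT and GAMT for WDR38, RPL18AP3, RPL7 and the TALON gene TALONG000072747 for CLHC1, and B9D1, JAM2 and TALONG000081144 for TRABD2A. For CAND2 they were TRIM66, TALONG000083300 and TALONG000067181, and for IL6ST TRIM66, TALONG000079482 and TALONG000082570. ATG10 was nearest to TALONG000083337, RPL15P3 and USP49, and DTL to TALONG000074103, TALONG000080579 and TALONG000082001. JAM2 and USP49 were themselves genes of the same kind as the members, with under 1% of their counts on annotated models.

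Genes that work with the members were then read from the same test. A gene with no count in siDelta2-4 has no row in the table, so a missing row is not a measured 0 in siControl. Of 55 genes in 5 lists of pathway partners, 28 had a count, 12 could be tested and 0 were called by edgeR in either direction, with 0 at an unadjusted p under 0.05 and 0 called by DESeq2. Among the autophagy conjugation genes around ATG10, 11 of 14 were counted and 4 tested: ATG5, the protein to which ATG10 helps attach ATG12, had 25 counts, and ATG7, the E1-like enzyme, had no row. Of the ligase subunits and substrates of DTL, 4 of 8 were counted and 3 tested. Its adaptor DDB1 had 18 counts, the scaffold CUL4B 351 and the replication clamp PCNA 210, with CUL4B at 0.31 ± 0.18 (adjusted p = 0.298). Around CAND2, 9 of 12 genes were counted and 5 tested, and its paralog CAND1 had no row. Of the gp130 signalling genes around IL6ST, 4 of 16 were counted and 1 tested, with no row for LIFR, OSMR, JAK1 and STAT3. Of the 6 Wnt genes listed beside TRABD2A, 1 was counted and 0 tested.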

How the data were processed

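Deposited values were raw counts per transcript model, made by the authors from nanopore PCR-cDNA reads with minimap2 2.14, SAMtools 1.13, TranscriptClean and TALON on GRCh38.p14 with Gencode annotation, keeping unannotated models seen repeatedly across samples. Column names read Empty where the labels say WT, and column numbers could not be matched to barcodes, so they only name libraries. Here, counts were summed per gene and tested with edgeR 4.0.16 (R 4.3.3; quasi-likelihood test, filterByExpr, TMM, Benjamini-Hochberg), calling adjusted p under 0.1; DESeq2 1.42.0 was an alternative. The code was tested on simulated data. No column was left without a sample. The opposite gene was the most counted annotated gene on the other strand overlapping the member or within 5000 bases. Copies were matched with BLAST 2.17.0. Shares were compared by exact permutation (SciPy 1.17.1). Named genes were the members, their opposite genes, their models, the 3 genes nearest in pattern and called partners; RPL21 and RPL41, the markers, the genes at the edge of the rule and single partner genes were named in addition. Members and lists were chosen with earlier results of these data known. Alternatives covered scaling, filters, test, threshold, a replicate block, single libraries left out and annotated models alone. Libraries differed beyond counting noise, so none was a duplicate.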

Additional observations from a re-analysis of the deposited data

How the results depend on the processing

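The number of genes called, 504, became 254 with DESeq2, 299 with the column number as a replicate block, 304 at an adjusted p under 0.05, and 194 (without siDelta2-4 library 2) to 1041 (without siControl library 3) with 1 library left out; for transcript models, 468, that last range was 173 to 1113. Calls of the members were split by setting. At an adjusted p under 0.05, IL6ST (0.0513 by edgeR) lost its call, as did the opposite gene RPL35 (0.0761). IL6ST also lost it with the replicate block (-0.24, adjusted p = 0.146) and without siControl library 1 or 2 or siDelta2-4 library 1 or 2. Over the fits with 1 library left out, log2 fold changes ranged from -0.33 to -0.21 for IL6ST, from -0.39 to -0.26 for CAND2, from -0.37 to -0.28 for WDR38, from -0.15 to -0.0437 for CLHC1, from -0.16 to -0.0113 for DTL, from -0.11 to 0.0109 for TRABD2A and from -0.09 to -0.00389 for ATG10. Partner calls ranged from 0 to 2, the latter without siControl library 3. The same-numbered libraries did not deviate together (correlations 0.04, -0.14 and -0.08), so the numbers do not pair them; among members the block ended no other call, and among opposite genes it ended those of RPL32 and RPL35 (-0.25 and -0.23, adjusted p = 0.136 and 0.167).

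Changes in sign were confined to values near 0 that passed no test. With library totals alone, which moved the median of all genes from 0.03 to 0.09, TRABD2A was at 0.0464, ATG10 at 0.0317, RPS27A at 0.00693, RPS23 at 0.0629 and RPL21P28 at 0.0304; without library 1 of siControl or 2 of siDelta2-4, TRABD2A was at 0.0109 and 0.00615; RPS23 was at 0.000872 under a minimum of 10 counts per library and ran from -0.0715 to 0.0597 with 1 library left out; TMSB10 ranged from -0.0547 to 0.0905. Calls split into 272 higher and 232 lower in the main test, 361 and 152 with library totals, 249 and 265 with DESeq2's size factors and 93 and 161 with DESeq2. Among opposite genes, RPL32 lost its call in 4 and RPL35 in 5 of the 6 fits with 1 library left out, and without siControl library 3 RPS27A and ENSG00000264281 gained one. CAND2, IL6ST and WDR38 kept theirs with each other scaling and filter and with DESeq2, and with members and opposite genes removed before scaling, an alternative chosen after seeing the data. On annotated models alone no member could be fitted. The TRABD2A share of its locus then differed by 0.00606 points, which rests on 1 count of TRABD2A-208 in siDelta2-4 library 3. The locus share changed sign with 1 library left out at CLHC1 (-0.692 to 0.350) and ATG10 (-1.11 to 0.147). The causes were not tested.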
